A study of Mus musculus with 5 samples.

Results

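Neural lineage markers are genes that are switched on as pluripotent cells become neuroepithelium, neural progenitors and neurons. The set described here holds Nes, Pax6, Sox1, Zic1, Neurog2, Neurod1, Tubb3 and Map2, and its members were taken as every probe of the array, controls left out, whose gene name in the scanner files is one of these 8 symbols. The rule found 7 of the 8 genes, with 10 of 41174 probes, among 27962 gene names. Map2 is carried on this array under its older symbol Mtap2, with 4 probes, which are reported apart from the rule.

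In the embryo, neural induction turns epiblast into a Sox1-expressing neuroepithelium. Its cells go on as progenitors that express Nes and Pax6 and are kept dividing by Notch signalling, and basic helix-loop-helix (bHLH) factors such as Neurog2 and Neurod1 then drive them to become neurons, which express Tubb3 and Map2. Mouse embryonic stem cells (ESCs) grown with serum and leukaemia inhibitory factor (LIF) self-renew, with bone morphogenetic protein signals and their Id target genes holding back neural entry, but ESC cultures can differ in how much of each lineage gene they express.

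RNA from 5 ESC lines, grown with LIF on gelatin, was measured on Agilent one-colour (Cy3) arrays, each line having an array of its own. RF8 (strain label 129sv origin, labelled male) and #620-2 (C57BL6/129sv origin, labelled female) were wild-type. The ECAT11EGFP/EGFP group held #620-6 (labelled female), #757-1 and #757-2 (both labelled male), all of C57BL6/129sv origin, in which both alleles of the ECAT11 coding region are replaced by a cassette with EGFP and a puromycin resistance gene. RF8 is the parental line in which the targeting was done, and the other lines came from blastocysts of the knock-in mice, brought up on SNL feeder cells. Each line is a separate derivation with no repeat array, so that p-values rest on the spread between lines, and line, strain and passage history cannot be told apart.

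The arrays lay on 2 slides, with RF8, #620-2 and #620-6 on slide 1 and #757-1 and #757-2 on slide 2. Levels are given as the log2 of the background-corrected signal minus the 75th percentile of the array, so that 0 is the level of that percentile. The extraction software marks a spot as well above background or not. The lowest such signal lay between -6.22 and -5.90 on slide 1 and at -4.49 and -4.22 on slide 2, and 26390 to 27180 probes passed on slide 1 against 22063 and 21260 on slide 2. A dim gene could therefore be missed more easily on slide 2, which held only ECAT11EGFP/EGFP lines. The ESC label was met by all lines: 10 of 10 ESC markers were well above background on all 5 arrays, with Pou5f1 (Oct3/4) at 2.55 to 3.05 and Sox2 at 4.14 to 4.67. Others of them varied, Zfp42 (Rex1) by 8.75-fold with #620-6 and #757-2 lowest (4.01 and 3.87, against 7.0 in RF8, 6.80 in #620-2 and 6.56 in #757-1), Dppa3 by 6.83-fold and Nanog by 4.01-fold. The #620-2 and #620-6 lines stood apart in the summed signal of fibroblast markers, from RF8 only through S100a4. The summed signal of 12 such genes, each array's 75th percentile being 1, was 64.0 in #620-2 and 67.3 in #620-6, against 16.8 in RF8, 3.15 in #757-1 and 5.47 in #757-2. That sum ran from 16.8 to 64.0 in the wild-type and from 3.15 to 67.3 in the ECAT11EGFP/EGFP lines. Of the list, 9 genes were well above background on all 5 arrays and 0 were at background throughout. S100a4 made up most of the sum in the #620 lines (5.61 and 5.70, against -1.66 to -0.06 in the other lines). Without it their sums lie close to that of RF8 and above those of the #757 lines only. The collagen genes Col1a1 (2.98, against 0.00 to 1.15) and Col1a2 (2.52, against -1.38 to 1.63) were highest in RF8. Fbln2, Thy1, Dcn and Pdgfra were among those higher in both #620 lines. The part of feeder or differentiated cells in any value below was not tested.

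Of the 10 member probes, 5 were well above background on all 5 arrays, 3 on some and 2 on none, where 50.1% of all probes passed on all 5 and 29.5% on none. Nes, Pax6, Neurod1 and Tubb3 were measured in every line, Sox1 and Zic1 in some, and Neurog2 in none. No member differed between the genotypes by the test used: 0 of the 8 member probes kept for testing were called at an adjusted p under 0.05 and more than 2-fold (limma with Benjamini-Hochberg adjustment over 28972 probes, background 0.00345%). With the p left unadjusted and the same fold the count was also 0 (background 3.34%), and the groups did not overlap for 0 of the 8 (background 23.5%). The single samples of the lines varied more, and since each line has 1 array, differences between lines cannot be told apart from differences between cultures or arrays. Nes ranged over 7.79-fold, Neurod1 over 7.30-fold and Pax6 over 3.96-fold among the 5 lines, while Tubb3 ranged over 1.42-fold. Nes and Neurod1 exceeded a range of 2 on the log2 scale, as did 4.94% of the 20617 probes that passed on all arrays.

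**Figure D1:**
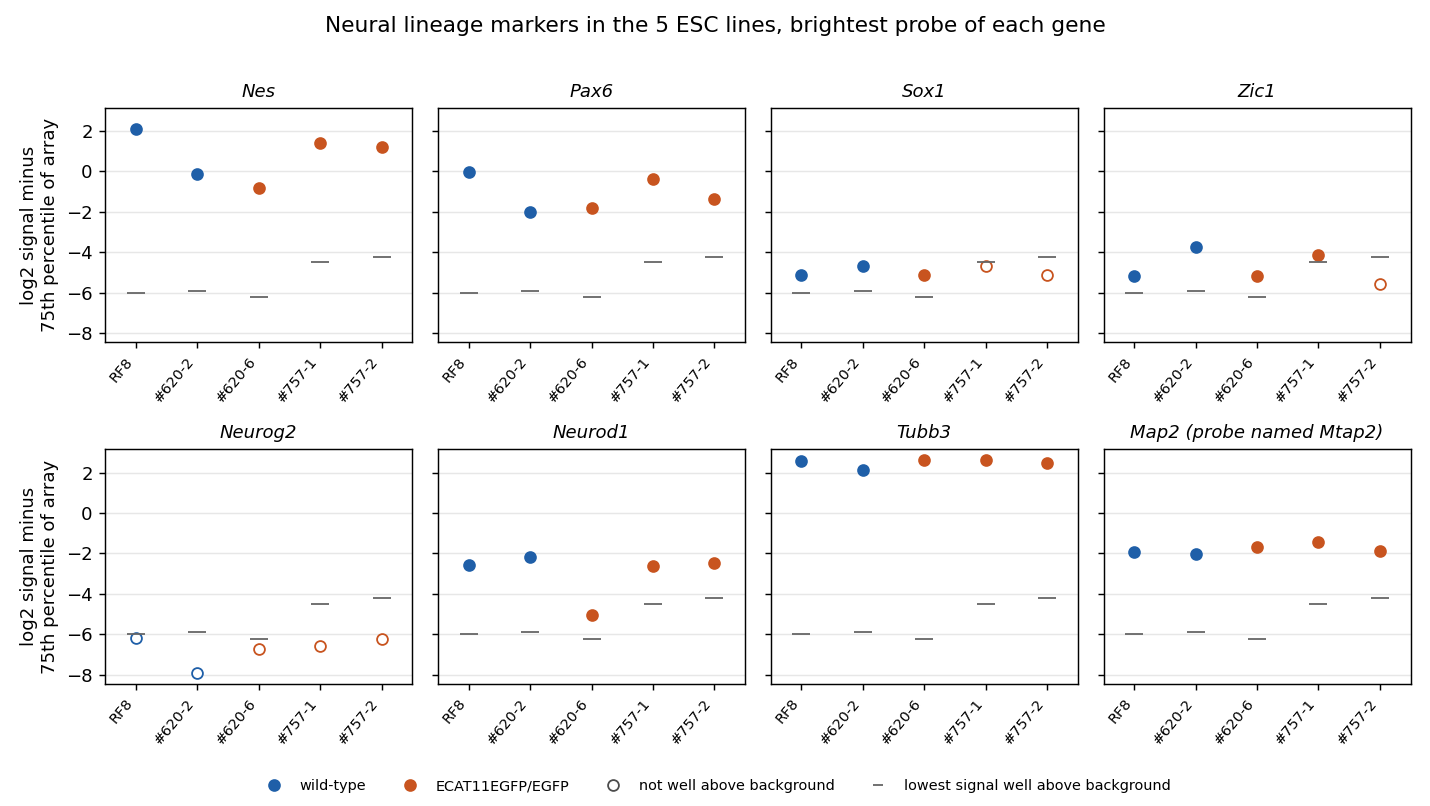
Level of the brightest probe of each neural marker in the 5 ESC lines. The vertical axis is the log2 signal minus the 75th percentile of the array, filled points were well above background, open points were not, and dashes give the lowest signal well above background on that array. Nes and Pax6 sit lowest in both #620 lines, Neurod1 drops in #620-6, Tubb3 is level, and Neurog2 is open in all 5 lines.

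Nes encodes nestin, the intermediate filament protein by which neural progenitors are usually recognised. Its probe lies at chr3:88094187-88094246 (mm7, plus strand) and was printed 10 times on each array. The log2 level came to 2.12 in RF8, -0.11 in #620-2, -0.84 in #620-6, 1.42 in #757-1 and 1.20 in #757-2. It was thus high in RF8 and both #757 lines and low in both #620 lines, and the genotypes overlapped. RF8 lay 1.63-fold above #757-1, #757-2 lay 2.49-fold above #620-2, and #620-2 lay 1.65-fold above #620-6, each gap being more than 2 times the combined array error. The gap between #757-1 and #757-2 (1.16-fold) was within it. The SD of the 10 spots of an array was 0.07 to 0.08 on the log2 scale. Among the 20617 probes that passed on all arrays, 1.44% ranged as widely over the lines.

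The mean of Nes was 1.01 ± 1.58 (SD, n = 2) in the wild-type and 0.59 ± 1.24 (SD, n = 3) in the ECAT11EGFP/EGFP lines, a log2 difference of -0.41 (SE 1.01, limma adjusted p = 0.974). The sign turned without RF8 (0.71) and without #620-6 (0.30). With the slide as a block, which leaves #620-6 against both wild-type lines, the difference was -1.84 (limma adjusted p = 0.709). With the sex label as a covariate it was -0.78 (limma unadjusted p = 0.0069, adjusted p = 0.233).

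**Figure D2:**
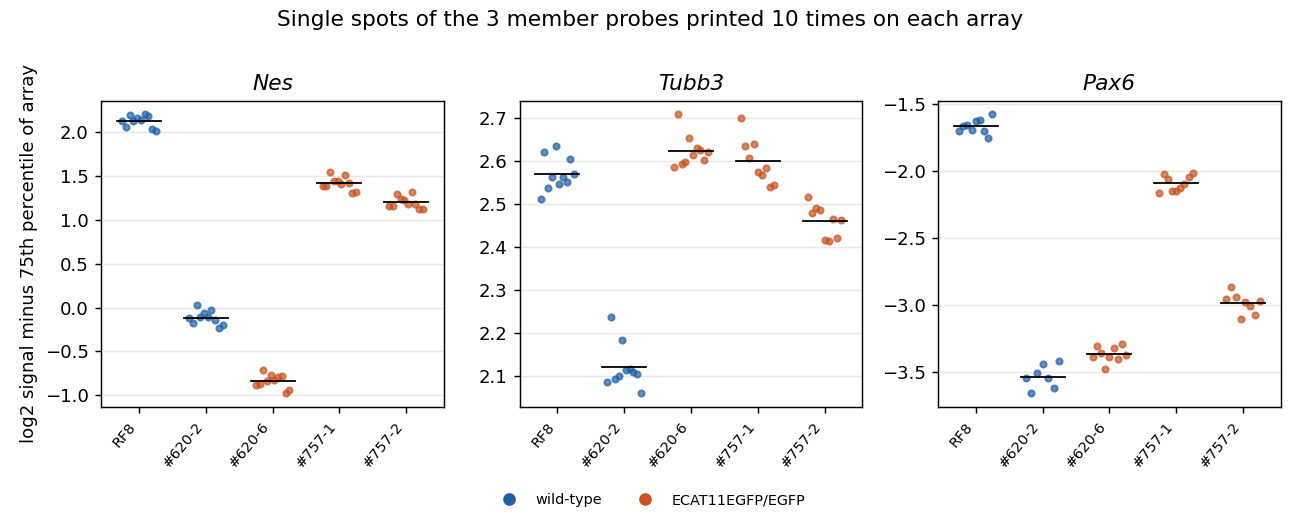
Log2 signal minus the 75th percentile of the array for each single spot of the Nes, Tubb3 and Pax6 probes that were printed 10 times per array, with spots marked as outliers left out and a bar at the mean. The vertical scales differ between panels: spots of a line lie close together, while the Nes lines are spread between -0.84 and 2.12.

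Pax6 encodes a paired-domain and homeodomain factor of forebrain progenitors, eye and spinal cord. It had 3 probes, and they are shown because they read different parts of its transcripts. The probe A_52_P565559 (chr2:105546221-105547093, mm7, plus strand, 60 bases over a span of 873 and so crossing a splice junction) reads coding sequence towards the end of the gene. The probe A_52_P469306 (chr2:105534728-105535579, span 852) crosses into the alternatively spliced exon known as 5a, whose 42 bases are in capitals, and which alters how the paired domain binds DNA.
A_52_P565559: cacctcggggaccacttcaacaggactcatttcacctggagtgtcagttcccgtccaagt
A_52_P469306: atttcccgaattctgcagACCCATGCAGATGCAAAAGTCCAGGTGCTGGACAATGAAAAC
The third probe, A_51_P489935, lies at chr2:105547907-105547966. Its log2 level came to -0.02 in RF8, -2.0 in #620-2, -1.79 in #620-6, -0.38 in #757-1 and -1.34 in #757-2. RF8 and #757-1 were high and within array error of each other, both #620 lines were low and within array error of each other, and #757-2 lay between and apart from both pairs. The splice-crossing probe A_52_P565559 gave -1.67, -3.53, -3.37, -2.09 and -2.99 in the same order of lines. The difference between these probes varied by only 0.19 over the lines, so that separate stretches of the transcript showed 1 pattern, although for A_52_P565559 the gap of #757-2 to #620-6 (1.30-fold) was within array error. The spots used for A_52_P565559 did not overlap between these lines, at -3.11 to -2.87 in #757-2 and -3.48 to -3.29 in #620-6. The exon 5a probe passed on no array, so that no level of that form could be given.

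The log2 difference of Pax6 between ECAT11EGFP/EGFP and wild-type was -0.16 (SE 0.75, limma adjusted p = 0.985) for A_51_P489935 and -0.22 (SE 0.70, limma adjusted p = 0.979) for A_52_P565559. The group means of A_51_P489935 were -1.01 ± 1.40 (SD, n = 2) for the wild-type and -1.17 ± 0.72 (SD, n = 3) for the ECAT11EGFP/EGFP lines, and the groups overlapped. Its sign turned without RF8 (0.83) and without #620-6 (0.15), a slide block gave -0.78, and adding the sex label gave -0.39.

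Sox1, an HMG-box factor, is the earliest of these genes to mark neuroectoderm. Its probe at chr8:12371212-12371271 (mm7, plus strand) is shown because it reads the coding part of this gene, which consists of a single exon, and because its signal lay close to the limit of detection.
A_51_P176337: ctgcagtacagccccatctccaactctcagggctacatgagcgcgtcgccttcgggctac
The log2 level came to -5.12 in RF8, -4.69 in #620-2, -5.11 in #620-6, -4.67 in #757-1 and -5.14 in #757-2, and it was well above background on slide 1 (3 arrays) but not on slide 2. No neighbouring lines in this order lay apart beyond array error, and the genotypes overlapped. The log2 difference was -0.07 (SE 0.25, limma adjusted p = 0.980), but the slide 2 bounds lie above every slide 1 value, so that it gives no direction. It turned positive without #620-2 (0.15), without #757-2 (0.01) and with another background correction, normexp (0.055).

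Zic1 encodes a zinc finger factor of the dorsal neural plate and cerebellum. Its probes A_52_P428654 (chr9:90989346-90989405, mm7, minus strand) and A_51_P194230 (chr9:90989326-90989385) share 40 bases and so are no independent readings. A_52_P428654 stood at -5.18 in RF8, -3.73 in #620-2, -5.17 in #620-6, -4.12 in #757-1 and -5.56 in #757-2, and A_51_P194230 at -5.46, -3.65, -5.34, -4.04 and -5.48. By both probes #620-2 and #757-1 were high and within array error of each other, and #757-1 lay apart from #620-6, by 2.07-fold and 2.46-fold. The high lines were of different genotype, slide and sex label. In #757-2 neither probe was well above background, and its bound of -4.22 lies close to #757-1, so that its place is not known. The log2 difference was -0.49 (SE 0.64, limma adjusted p = 0.938) for A_52_P428654 and -0.40 (SE 0.73, limma adjusted p = 0.965) for A_51_P194230, and the former became 0.23 without #620-2. These differences take #757-2 at its signal below that bound, so that their size cannot be read. With normexp background correction the log2 difference of A_52_P428654 was -0.040, and its range over the lines shrank from 1.83 to 0.54. With #757-2 at its bound the range was 1.45. Zic4, which neighbours Zic1 on chromosome 9 with 0 protein-coding genes between them, did not show this pattern, with -5.41, -5.33, -5.49, -5.97 and -5.81 in the same order of lines, but it was well above background on 3 arrays only.

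The proneural members are the bHLH factors Neurog2, which commits progenitors to a neuronal fate, and Neurod1, which acts later in differentiating neurons and in endocrine cells. The Neurog2 probe (chr3:127472378-127472437, mm7, plus strand) passed on no array, with signals of -7.91 to -6.18, and was not tested. The Neurod1 probe (chr2:79297180-79297239, minus strand) was well above background in every line. Its log2 level came to -2.59 in RF8, -2.16 in #620-2, -5.03 in #620-6, -2.61 in #757-1 and -2.46 in #757-2. The line #620-6 lay 5.37-fold below the next lowest line, beyond array error, and the other 4 lines lay within array error of their neighbours. Among probes that passed on all arrays, 1.61% ranged as widely. With normexp the range fell from 2.87 to 1.48 on the log2 scale.

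The mean of Neurod1 was -2.37 ± 0.30 (SD, n = 2) in the wild-type and -3.37 ± 1.44 (SD, n = 3) in the ECAT11EGFP/EGFP lines, a log2 difference of -0.99 (SE 0.88, limma adjusted p = 0.895). The groups overlapped, since #757-2 lay between the wild-type lines. Without #620-6 the difference was -0.16, and normexp gave -0.47. A slide block gave -2.66 (limma unadjusted p = 0.00099, adjusted p = 0.179), a value that compares #620-6 alone with both wild-type lines of its slide.

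The neuronal cytoskeleton is represented by Tubb3, the beta-tubulin used as a marker of young neurons, and Map2, a microtubule-associated protein of dendrites. The Tubb3 probe (chr8:122062871-122062930, mm7, plus strand, printed 10 times) stood at 2.57 in RF8, 2.12 in #620-2, 2.62 in #620-6, 2.60 in #757-1 and 2.46 in #757-2. All lines passed, no neighbours lay apart beyond array error, and 59.8% of the probes that passed on all arrays ranged as widely. The log2 difference between genotypes was 0.22 (SE 0.20, limma adjusted p = 0.899), or -0.0090 without #620-2, which was the lowest line. The SD over the spots of an array was 0.04 to 0.05, smaller than the step of 0.34 from #757-2 to #620-2.

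Of the 4 probes for Map2, under the name Mtap2, 1 was well above background in every line and 1 on slide 1 only. The probe A_52_P22763 (chr1:66681917-66681976) stood at -1.91 in RF8, -2.02 in #620-2, -1.67 in #620-6, -1.42 in #757-1 and -1.89 in #757-2. All 3 ECAT11EGFP/EGFP lines were above both wild-type lines, by a margin of only 0.02 between #757-2 and RF8, with a log2 difference of 0.30 (SE 0.20, limma adjusted p = 0.839). The probe A_51_P180754 (chr1:66678688-66678747) stood at -5.63 in RF8, -5.78 in #620-2 and -5.91 in #620-6, within array error of each other. It was not well above background on slide 2, where the bounds of -4.49 for #757-1 and -4.22 for #757-2 lie above all slide 1 values, so that its fitted difference of -0.49 (SE 0.21, limma adjusted p = 0.709) gives no direction.

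**Figure D3:**
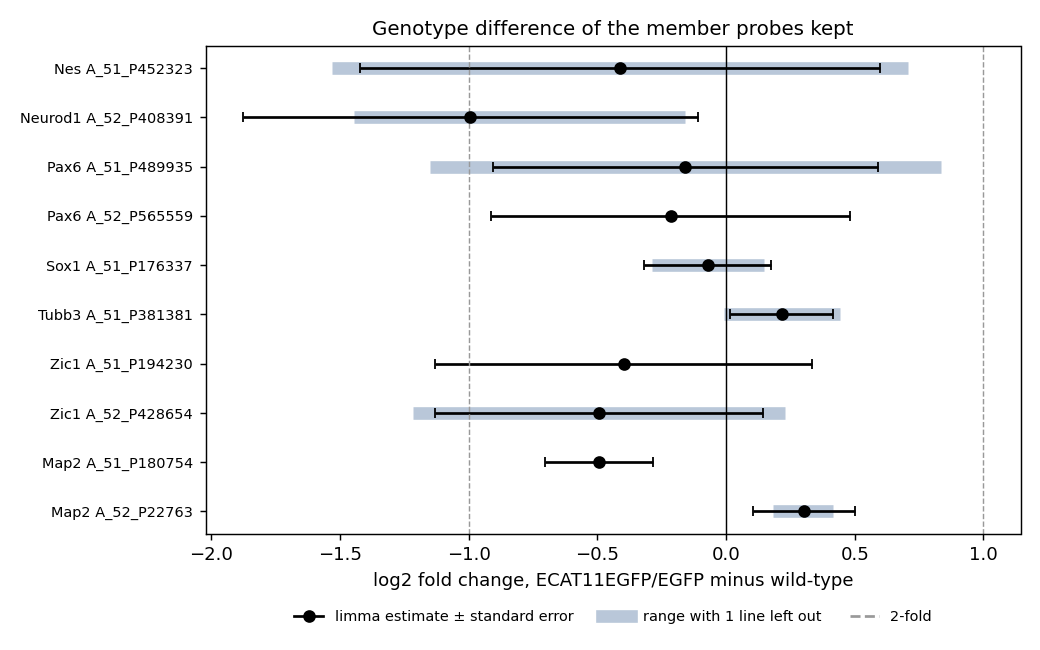
Log2 fold change of ECAT11EGFP/EGFP over wild-type lines for the 8 member probes kept and the 2 kept probes of Map2. Points and bars give the limma estimate and its standard error, and the pale bands, drawn for the brightest probe of each gene, span the estimates with 1 line left out. The bands of Nes, Pax6, Sox1, Tubb3 and Zic1 cross 0, and that of Neurod1 runs from -1.45 to -0.16. Sox1 and Map2 A_51_P180754 were not well above background on slide 2, so that their points give no direction. Zic1 was not well above background in #757-2, so that the size of its difference cannot be read.

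Both #620 lines lay below the other 3 lines for 3 of the 8 member probes kept, those of Nes and the bright probes of Pax6, and above them for 0. Over all kept probes measured throughout, 20.3% lay below in this way and 18.7% above. The #620 lines share a line number and the female label, which cannot be told apart with 5 lines, and they differ in genotype. Markers of primed epiblast (Fgf5, Pou3f1, Dnmt3b and Otx2, genes that rise as the naive state is left) moved with them: 4 of 4 were well above background on all arrays, and their summed signal was 59.7 in #620-2 and 31.3 in #620-6 against 118 in RF8, 90.2 in #757-1 and 90.1 in #757-2. Otx2, also a forebrain factor, stood at 1.99 in RF8, -0.11 in #620-2, -0.53 in #620-6, 0.77 in #757-1 and 0.92 in #757-2, the same order of lines as Nes except for the #757 pair. The fibroblast marker sum, as given above, was highest in the #620 lines, though above RF8 only through S100a4. The summed signal of 9 mesendoderm and endoderm markers was also higher there, at 1.16 and 1.12 against 0.53 to 0.63, with 4 of the 9 well above background on all arrays and Mixl1 on none. Sox17, an endoderm factor of that list, stood at -2.64 in #620-2, -2.99 in #620-6 and -4.99 in RF8 and was not well above background on slide 2. Other genes of the list did not follow the sum. T stood at -3.52 in #757-2 and -4.01 in RF8 against -4.92 in #620-2, and was not well above background in #620-6 or #757-1. Foxa2 stood at -2.93 in both #620-2 and #757-1. Among the ESC markers Nanog ran in the reverse order to Nes, with 2.54 in RF8, 3.96 in #620-2, 4.54 in #620-6, 3.44 in #757-1 and 3.71 in #757-2. Eras, a Ras-like gene of ESCs, was higher in the #620 lines (3.20 and 3.45, against 1.99 to 2.13), and Esrrb was lowest in RF8 (2.56, against 3.35 to 3.84). Other ESC markers did not follow this order. Fbxo15 stood at 4.93 in RF8, 4.13 in #620-2, 5.61 in #620-6, 5.79 in #757-1 and 5.88 in #757-2. Dppa3 stood at 3.44, 2.02, 3.71, 4.80 and 4.73 in the same order of lines. Zfp42, as given above, was low in #620-6 and #757-2. The part of any of these markers in the Nes and Pax6 levels was not tested, and in bulk RNA fewer cells of a type cannot be told apart from less RNA per cell.

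The surroundings of the members in the neural programme were read from 6 wider lists with 111 genes, all on the array with 194 probes. By the brightest probe of each gene, 62 were well above background on all 5 arrays, 32 on some and 17 on none, which is 55.9% and 15.3% for all and none. Over the 27670 gene symbols of the array these shares were 50.9% and 29.9%. The counts by list are given without a test. Restrainers of neural fate, such as Rest, the Id genes and Bmp4, were detected in every line for 9 of 9 genes. Neuronal cytoskeleton and synapse genes followed with 20 of 28, progenitor and Notch pathway genes with 14 of 18 and glial genes with 6 of 9. Neuroepithelium and patterning factors came to 11 of 28, and proneural and neuronal transcription factors to 2 of 19, with 11 on some arrays and 6 (among them Neurod4, Neurod6, Atoh1, Myt1 and Tbr1) on none. Six3, Six6, En1, Irx3, Dbx1, Pax3 and Pax7 among the patterning factors and Gfap among the glial genes were likewise at background in all lines.

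Of the relatives of the members that were detected in every line, Sox2, Zic2, Rest, Map1b, Tubb2b and Vim each varied less over the lines than Nes and Pax6. Otx2, given above, ranged over 5.73-fold, more than Pax6 and less than Nes. Neurog1 and Neurog3, the other neurogenins, passed on slide 1 only (3 arrays), at -5.11 to -4.49 and -5.09 to -4.61 there, and Neurod2 on 2 arrays. Sox3, which shares its group with Sox1, was well above background in RF8 alone (-4.74). That level is below the lowest signal well above background on slide 2 (-4.49 and -4.22), so that RF8 is not set apart from the #757 lines. Sox2, the third of that group and a pluripotency factor as well, was at 4.14 to 4.67. Zic2 was at -3.02 to -1.98. Rest, the repressor of neuronal genes in non-neuronal cells, was nearly level at 4.61 to 4.88. Among cytoskeletal genes Map1b was at -4.02 to -2.75 with RF8 highest and Tubb2b at 0.70 to 1.56. Vim (vimentin), the filament partner of nestin and also a fibroblast gene, stood at 4.29, 5.13, 5.31, 4.06 and 4.45 in RF8, #620-2, #620-6, #757-1 and #757-2, higher in the #620 lines and so opposite to Nes.

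Several genes of the wider lists varied more between lines than any member. Olig1 and Olig2, bHLH factors of the oligodendrocyte lineage that neighbour each other on chromosome 16 with 0 protein-coding genes between them, were nearly on or off. Olig1 stood at -4.66 in RF8, 1.80 in #620-2, -4.71 in #620-6, 1.94 in #757-1 and 0.98 in #757-2, a range of 101-fold. Olig2, by the 1 of its 2 probes that was kept, stood at 0.24 in #620-2, 0.80 in #757-1 and -0.88 in #757-2. It was not well above background in RF8 or #620-6, so that by this probe #757-1 lay at least 130-fold above #620-6. The high lines were #620-2, #757-1 and #757-2 for both genes, so that each genotype and each sex label held high and low lines, while both lines of slide 2 were high. The genotype differences were 0.83 (SE 2.90, limma adjusted p = 0.980) for Olig1 and 1.41 (SE 3.19, limma adjusted p = 0.971) for Olig2.

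Dcx (doublecortin), a microtubule protein of migrating neurons, was well above background in #620-2 alone, at -2.09 by the 1 of its 3 probes that was kept. Its level there was at least 17.6-fold above the lowest bound, that of #620-6. Hes5, a Notch target of neural progenitors, stood at -0.96 in RF8, -3.20 in #620-2, -3.81 in #620-6, -0.97 in #757-1 and -0.65 in #757-2, low in both #620 lines as Nes was. Fabp7, a fatty acid binding protein of radial glia, stood at -3.05, -5.65, -6.62, -3.91 and -3.86 in the same order, and was not well above background in #620-6. Zfp521, a zinc finger factor of neural entry, was also lowest in the #620 lines, at -3.44 and -4.47 against -2.40 to -1.85.

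Other wide-ranging genes ran the opposite way. Sox9, a factor of glial and neural crest progenitors and of cartilage, stood at -0.69 in #620-2 and -0.54 in #620-6 against -3.95 in RF8, and was not well above background on slide 2. Mapt (tau), an axonal microtubule protein, stood at 0.28 in #620-2 and 1.46 in #620-6 against -2.51 to -0.89 in the other lines. So progenitor genes were not uniformly low in the #620 lines. Over the wider lists, 36 of 140 kept probes (25.7%) had both #620 lines below the other 3 and 23 (16.4%) had them above, beside 20.3% and 18.7% of all kept probes, which is given as a description without a test.

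**Figure D4:**
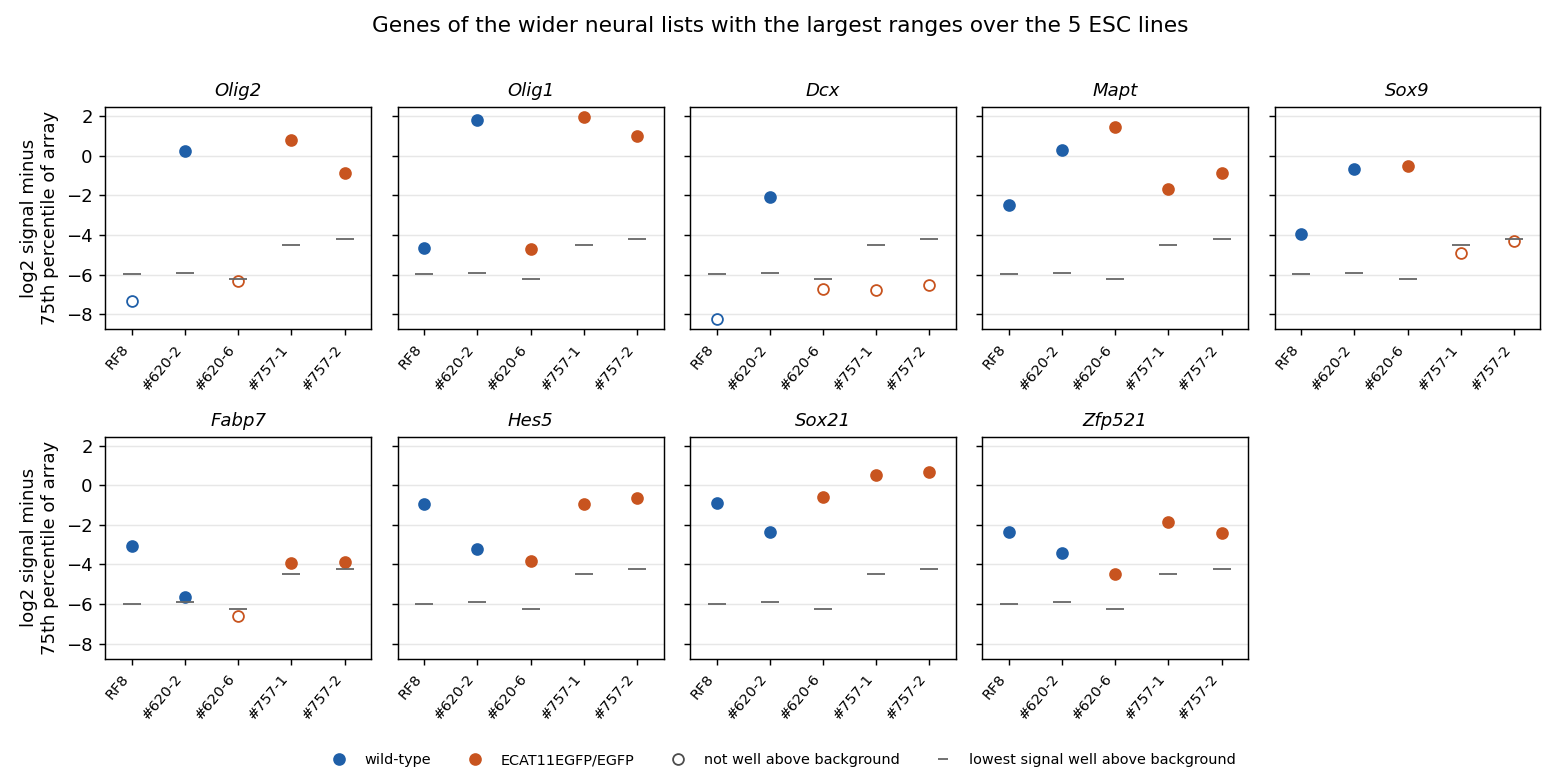
Level of genes of the wider neural lists with the largest ranges over the 5 ESC lines, brightest kept probe of each, with the same axis and symbols as in the plot of the members by line. Olig1 and Olig2 are high in #620-2 and both #757 lines, Sox9 and Mapt are high in both #620 lines, and Hes5 and Fabp7 are low there.

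Between genotypes, 0 of the 140 kept probes of the wider lists were called (limma, smallest adjusted p 0.344, background 0.00345%). Before adjustment, 17 (12.1%) had a p under 0.05 (background 7.6%), and 10 of these were more than 2-fold apart (7.14%), 7 higher and 3 lower in ECAT11EGFP/EGFP lines, where the background was 3.34% in all, 2.34% higher and 0.994% lower. Isl1, Th and Myt1l, which made up 3 of the 7, were well above background in #620-6 alone and entered the test through that line. Myt1l was kept by 1 of its 5 probes only. The others in this direction were Dpysl3 (1.07, SE 0.30), Mbp (1.30, SE 0.43) by 1 of its 2 kept probes, and Sox21 (1.84, SE 0.61 for the brighter) by 2 of its 3. The adjusted p of these probes by limma lay between 0.526 and 0.596. The remaining kept probe of Mbp and that of Sox21 did not meet both the unadjusted p and the fold threshold. Sox21, a SOX factor of progenitors, stood at -0.92 in RF8, -2.37 in #620-2, -0.58 in #620-6, 0.49 in #757-1 and 0.67 in #757-2, and Dpysl3, a growth cone protein, at 1.02, 1.33, 2.67, 2.24 and 1.84. In both, all 3 ECAT11EGFP/EGFP lines lay above both wild-type lines, as they did for 11.4% of all kept probes.

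The lower probes were 3, those of Gap43 (-1.15, SE 0.26), a growth cone protein of extending axons, of Emx1 (-1.14, SE 0.29), a factor of the dorsal forebrain, and of Pou4f1 (-1.79, SE 0.66), a factor of sensory neurons, with limma adjusted p of 0.462, 0.495 and 0.642. The Pou4f1 probe was not well above background on slide 2, so that its value rests on bounds, and the brighter probe of that gene, well above background on all 5 arrays, differed by -0.07 (limma adjusted p = 0.970). Emx1 was not well above background in #757-2. Gap43 stood at -0.78 in RF8, -1.44 in #620-2, -2.29 in #620-6, -2.07 in #757-1 and -2.39 in #757-2. Over the wider lists the groups did not overlap for 16 probes higher and 16 lower (22.9% of 140, background 23.5%), and the median log2 difference was 0.05. The count at an unadjusted p fell to 4 with normexp and with the methods' t-test, and to 6 without #757-2, and rose to 17 with the slide as a block.

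The genes closest in pattern to a member were sought among 22056 probes well above background on at least 3 arrays, by the root mean square difference of log2 levels centred on their mean over the 5 lines. With 5 points per gene this is a description only. Closest to Nes were Tagln (0.07), an actin-binding protein of smooth muscle, Il33 (0.09), a cytokine, and Foxa3 (0.10), an endodermal forkhead factor. Tagln stood at 5.28 in RF8, 3.08 in #620-2, 2.22 in #620-6, 4.59 in #757-1 and 4.20 in #757-2. Closest to Pax6 were Slc5a5 (0.10), the sodium iodide transporter, Id1 (0.13), an inhibitor of bHLH factors, and Cxcl16 (0.15), a chemokine. Id1, 1 of the restrainers of neural fate, stood at 3.82 in RF8, 2.01 in #620-2, 2.03 in #620-6, 3.23 in #757-1 and 2.50 in #757-2, so that it was high where Pax6 was high.

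The nearest patterns to Zic1 were those of Prdm8 (0.10), Aldh2 (0.16) and Galnt9 (0.17), all with #620-2 and #757-1 highest in signal. Prdm8 and Aldh2 stood at -4.55 and -4.68 in #757-1, below the lowest signal well above background there (-4.49). In #757-2 Prdm8, Aldh2 and Galnt9 stood at -6.18, -5.93 and -4.66, below its limit of -4.22. Those levels are bounds, so that the place of these lines in the order is not known. The nearest patterns to Neurod1 included Odf3b (0.33) and Cracr2b (0.36), less close than for the other members but each with #620-6 lowest. Of the genes named here as nearest, Id1 alone is on the lists of neural genes.

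**Figure D5:**
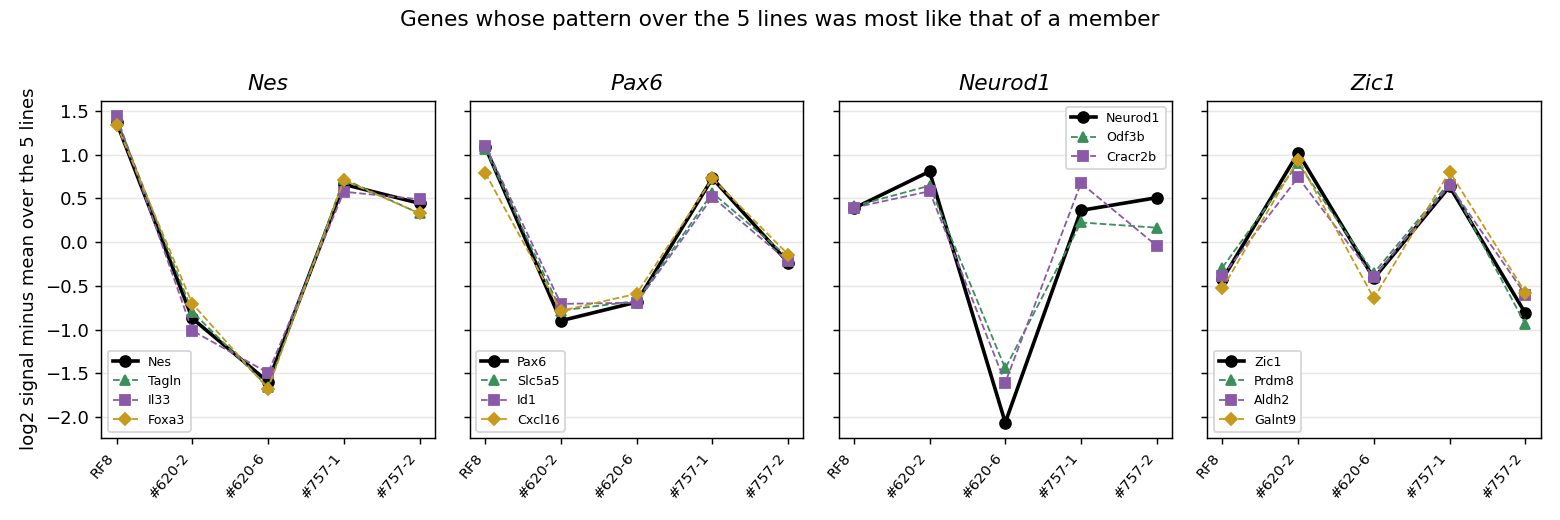
Log2 signal minus the mean over the 5 lines for Nes, Pax6, Neurod1 and Zic1 (black) and genes whose pattern was most like each (dashed). Tagln, Il33 and Foxa3 follow Nes to within a root mean square of 0.10, and the genes nearest to Neurod1 share its drop in #620-6.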

How the data were processed

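The authors deposited, per array, Feature Extraction 9.5.3.1 output with a background-corrected intensity for each spot, not normalized between arrays, and a table of log2 values centred per probe, which matched those intensities with a slope of 1.00 over 20617 probes. Probe positions are those of mm7 per the file headers. The authors' methods name GeneSpring GX, scaling to the 75th percentile, flags and a t-test.

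From the intensities, control spots were left out, spots marked non-uniform or as population outliers (0.316% to 0.355%) were left out, the rest were divided by their array's 75th percentile (687.5 to 794.4), the log2 was taken and spots of a probe were averaged. No spot was saturated. Probes Present on at least 1 array (28972) were tested with limma 3.58.1 in R 4.3.3, with Benjamini-Hochberg adjustment, and called at an adjusted p under 0.05 and more than 2-fold. Where an array was not well above background, its level is a bound at the higher of its own signal and the lowest signal well above background there. Lines were called apart where their gap exceeded 2 times the combined error given by the extraction software. For 2 lines against 3, the number of arrays limits the precision. On simulated data limma recovered 0.4% of 2-fold, 38% of 4-fold and 69% to 70% of 16-fold changes among 28898 probes. The 2-fold changes lay at the fold threshold itself, which by its place removes many of them whatever the number of arrays. The observed SD of each probe was taken as its true SD.

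Genes named were all member probes, up to 10 genes of the wider lists with the largest range and up to 10 by unadjusted p (more than 2-fold), fixed relatives of the members, and the 3 genes nearest in pattern to each member with a range over 1. Pou4f1, Zic4 and the genes listed as at background were named after their values were seen. The members and lists were chosen with earlier results of these data known. Probes were named through RefSeq accessions (22951), symbols (6659) or synonyms (3109), and 8455 kept the file's name. Alternatives were normexp (offset 50), quantile scaling, the deposited log2 values, other filters, marked spots kept, the slide or the sex label in the fit, a variance trend, the methods' t-test, and leaving out each line. ECAT11 itself is not analysed here, and some genes that the rule names are not reported here. Tables were handled in Python 3.11.15 with pandas 2.3.3 and numpy 2.4.6, and figures drawn with matplotlib 3.10.9.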

Additional observations from a re-analysis of the deposited data

How the results depend on the processing

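No member probe and no probe of the wider lists was called by limma or by the methods' t-test under any of the 15 settings tried, the smallest adjusted p being 0.179 for the members (Neurod1 with the slide as a block) and 0.191 for the wider lists. The signs of the small differences were not fixed. With 1 line left out the log2 difference ran from -1.15 to 0.83 for Pax6, from -1.53 to 0.71 for Nes, from -0.29 to 0.15 for Sox1, from -1.45 to -0.16 for Neurod1, from -0.0090 to 0.44 for Tubb3, from -1.22 to 0.23 for Zic1 and from 0.18 to 0.42 for Map2. Normexp turned Sox1 to 0.055, and the mean over kept probes turned Map2 to -0.10. Sox1 and the dimmer Map2 probe were not well above background on slide 2, so that neither sign can be read. Normexp moved Zic1 to -0.040 and Neurod1 to -0.47. Zic1 was not well above background in #757-2, so that the size of its difference cannot be read. With the sex label as a covariate Nes moved to -0.78 (limma unadjusted p = 0.0069, adjusted p = 0.233). Neurod1 kept its sign under all settings. Counting probes that are positive and significant, in place of well above background, gave 8 member probes on all 5 arrays in place of 5, and 120 of the wider lists in place of 88. The ranges over the lines were 2.80 to 2.98 for Nes and 1.71 to 2.01 for Pax6 with normexp, quantile normalization or the deposited table, alternatives that were chosen after seeing the data. No paired analysis was possible because the labels number no replicates. Detection on slide 2 had a higher limit, and dim genes there have bounds only.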
